A study of Homo sapiens with 2 samples.

Results

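The 476 peaks described here lie in the terminal 5 Mb of the short arm of chromosome 1, band 1p36.3. They were called for H4R3me2a, histone H4 carrying an asymmetric dimethyl group at arginine 3, in the human colorectal carcinoma cell line HCT116. The members were chosen by position alone, as peaks on chromosome 1 with a summit at or below base 5000000 of GRCh38. They make up 1.43% of the 33349 peaks on chromosomes 1 to 22 and X, and 2744 other peaks lie on chromosome 1. The study compared 1 H4R3me2a immunoprecipitation library with 1 library of input DNA, both from untreated cells that were cross-linked with formaldehyde and sheared by sonication. With 1 library of each kind there was no replicate test, no p-value is given, and the 95% intervals cover counting error only. Neighbouring peaks are not independent, so these intervals are too narrow.

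H4R3me2a is placed mainly by the arginine methyltransferase PRMT1 and is known as a mark of transcriptionally active chromatin. Terminal 1p36 is a gene-dense, GC-rich stretch, and its loss in the germline causes the 1p36 deletion syndrome, in which SKI, PRDM16, GABRD, GNB1, PRKCZ and MMP23B are among the genes discussed. The region also holds TP73, which encodes a transcription factor, and several genes of Notch and WNT signalling. In tumours such as neuroblastoma the distal part of 1p is often lost.

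The peaks with the highest fold enrichment or pileup show what the enriched sequence looked like. The lines below give 200 bases around the summits of the 3 highest-fold peaks that are unique in the genome by their central 32 bases and overlap no UTR, of 2 peaks among the highest pileups chosen in the same way, and of the peak with the lowest GC content. They are from GRCh38, plus strand, with each CpG dinucleotide in capitals.
ATAD3A intron, chr1:1527431-1527630: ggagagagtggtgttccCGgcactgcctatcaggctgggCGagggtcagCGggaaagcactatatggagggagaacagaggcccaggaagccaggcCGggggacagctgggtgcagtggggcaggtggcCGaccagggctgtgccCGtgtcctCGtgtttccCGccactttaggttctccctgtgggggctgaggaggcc
Intergenic near C1orf159, chr1:1081556-1081755: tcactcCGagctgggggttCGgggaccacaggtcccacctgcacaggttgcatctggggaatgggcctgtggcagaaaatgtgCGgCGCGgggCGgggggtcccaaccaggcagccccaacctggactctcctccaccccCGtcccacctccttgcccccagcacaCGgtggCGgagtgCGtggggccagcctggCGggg
SKI intron 3, chr1:2303398-2303597: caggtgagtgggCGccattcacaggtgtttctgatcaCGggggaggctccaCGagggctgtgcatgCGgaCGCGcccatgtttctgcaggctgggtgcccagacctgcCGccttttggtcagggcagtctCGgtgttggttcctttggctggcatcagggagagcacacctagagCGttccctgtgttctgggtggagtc
Intergenic near C1QTNF12, chr1:1248574-1248773: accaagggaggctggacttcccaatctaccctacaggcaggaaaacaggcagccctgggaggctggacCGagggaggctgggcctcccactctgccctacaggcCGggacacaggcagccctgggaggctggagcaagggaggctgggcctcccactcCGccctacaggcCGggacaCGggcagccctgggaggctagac
TTC34 intron 6, chr1:2652171-2652370: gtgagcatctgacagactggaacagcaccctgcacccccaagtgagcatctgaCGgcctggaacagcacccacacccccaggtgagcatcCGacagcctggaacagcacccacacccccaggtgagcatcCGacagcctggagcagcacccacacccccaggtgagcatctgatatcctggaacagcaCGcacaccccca
GNB1 intron 7, chr1:1800822-1801021: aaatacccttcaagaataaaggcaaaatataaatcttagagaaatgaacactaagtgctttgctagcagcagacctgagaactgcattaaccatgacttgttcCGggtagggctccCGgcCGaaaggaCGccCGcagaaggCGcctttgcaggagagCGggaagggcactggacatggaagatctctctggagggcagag
The ATAD3A peak (1527286 to 1527715) had a fold of 6.92 at a pileup of 13 fragments, and its 200 bases were 66.0% GC with 8 CpGs. The peak near C1orf159 (1081019 to 1082169) had a fold of 6.72 at a pileup of 16, and held 11 CpGs and 1 GC box, the letters GGGCGG on either strand that transcription factors of the SP family can bind. The SKI peak had a fold of 6.66 at a pileup of 20. A different kind of sequence stood under other high pileups. In the line near C1QTNF12 the bases repeat at a spacing of 66 bp with 89.5% identity, and in the TTC34 line at 40 bp with 68.9% identity. In these 2 lines 79.2% and 79.7% of the 12-base words in the surrounding 400 bp occurred more than once, against 0% in the ATAD3A, C1orf159 and SKI lines. The GNB1 peak had the lowest GC content of the members, 43.1% in the surrounding 400 bp, with a pileup of 7 and a fold of 3.88.

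The region was much denser in peaks than the rest of the chromosome. It held 99.2 peaks per Mb of sequence other than N (95% exact interval 90.5 to 109), against 12.2 per Mb (11.7 to 12.6) on the rest of chromosome 1, a ratio of 8.16 (7.39 to 9). The rest of the genome held 11.3 per Mb. Among 570 tiles of 5 Mb over the genome the region ranked 7, and it ranked 1 of 45 on chromosome 1, where the neighbouring tile held 49.0 per Mb. The median tile of the genome held 3.40 per Mb. Other gene-dense chromosome ends held more peaks, with 125 per Mb (115 to 135) in the terminal 5 Mb of 9q, 144 (133 to 155) in that of 16q and 191 (179 to 204) in that of 19p. The members covered 115 kb, or 2.41% of the region, against 0.264% of the rest of chromosome 1. Neighbouring summits lay a median of 2662 bp apart, against 12193 bp on the rest of the chromosome. When peaks less than 1 kb apart were joined, the 476 peaks formed 338 groups of up to 6, and 48.9% of members shared a group, against 24.7% of peaks on the rest of chromosome 1.

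Base composition moved with this density. Positions whose surrounding 400 bp had a GC content of 60 to 70% made up 27.7% of the region, against 2.04% of the rest of the genome, and they held 352 of the 476 members. Within that stratum the region held 265 peaks per Mb and the rest of the genome 226, a ratio of 1.17 (1.05 to 1.3). At 50 to 60% GC the region held 53.0 per Mb, against 43.0 in the rest of the genome (ratio 1.23, 0.979 to 1.53). At 70% or more it held 235, against 211 in the rest of the genome (ratio 1.11, 0.773 to 1.55). Below 50% GC it held 8 peaks, 4.47 per Mb against 1.42 in the rest of the genome (ratio 3.16, 1.36 to 6.22). The rates of the rest of the genome in GC bins of 2% gave an expected 442 peaks for the region, so the observed number was 1.08 times the expected one. The rest of chromosome 1 also stood at 1.08, with 2744 peaks and 2532 expected, and over this expectation the region ranked 103 of the 570 tiles.

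**Figure D1:**
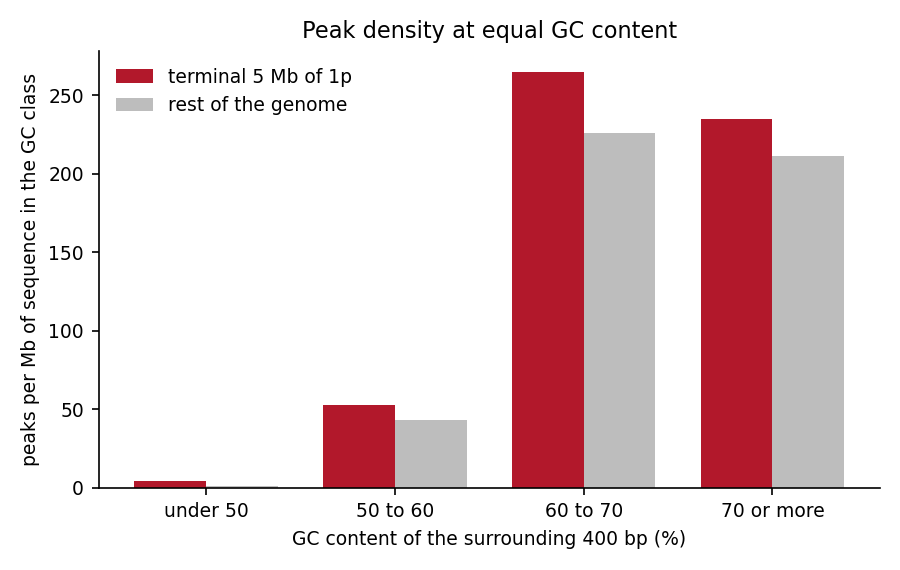
Bars give peaks per Mb of sequence in each class of GC content of the surrounding 400 bp (x axis, percent), for the terminal 5 Mb of 1p (red) and the rest of the genome (grey). In the classes from 50% GC upward the region stands at 53.0, 265 and 235 peaks per Mb, against 43.0, 226 and 211 in the rest of the genome.

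The peaks were unevenly spread over 10 windows of 500 kb, numbered from the telomere. Window 3 (1000001 to 1500000) held 146 peaks, or 292 per Mb (247 to 343), and ranked 11 of 5800 such windows in the genome and 1 of 460 on chromosome 1. The next richest were window 5 (2000001 to 2500000) with 101 peaks, rank 25 in the genome, and window 8 (3500001 to 4000000) with 68, rank 68. Windows 2, 4, 6 and 7 held 41, 57, 38 and 24. The median window of the genome held 1 peak, and 45.8% of windows held none. Window 1, which holds the subtelomeric olfactory receptor genes OR4F5 and OR4F29, had 1 peak (summit 136865), and 763 kb separated it from the next one at 899457. The peak of window 1 had a fold of 7.66, the highest of the members, at a pileup of 12 over a background of 0.697 fragments, and its central 32 bases occur 38 times in the genome, so its position is uncertain.

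The peaks ended well inside the limit set at 5000000. The last member had its summit at 3912220, in an intron of the long non-coding RNA LINC01134, with a pileup of 11 and a fold of 5.13. The next summit on the chromosome was at 5662070, with a pileup of 10 and a fold of 4.22, which left a gap of 1750 kb across the limit. Windows 9 and 10 held 0 peaks, which allows up to 3 peaks in each (6 per Mb), where GC content gave 14.4 and 14.0 expected peaks. Their GC content was 47.9%. Window 10 has the start of 1 protein-coding gene, AJAP1, an adherens junction protein, and window 9 of 0.

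**Figure D2:**
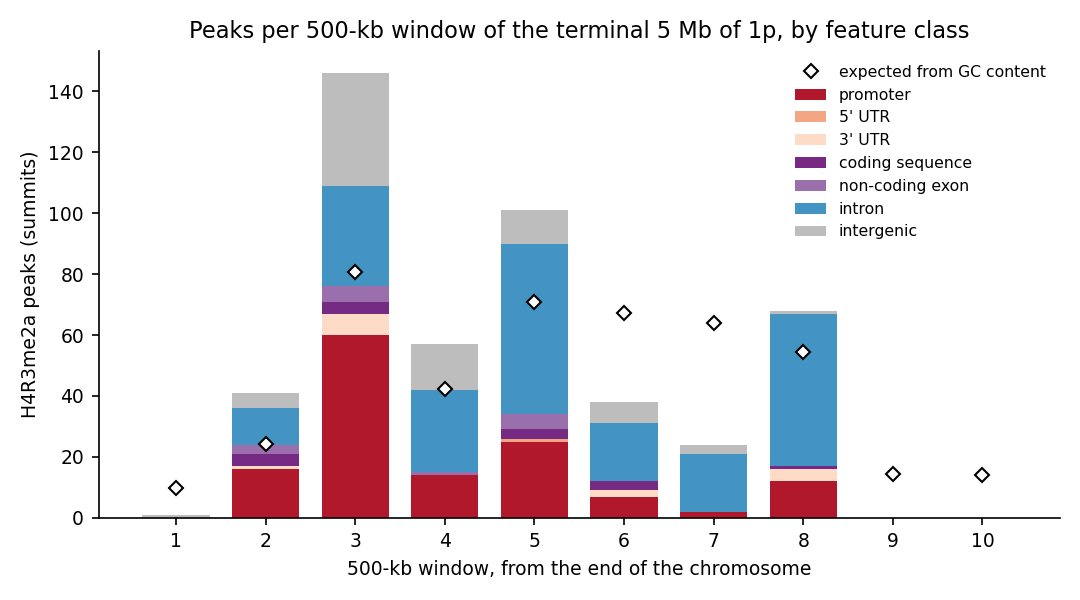
Stacked bars give the number of summits in each 500-kb window of the terminal 5 Mb of 1p, from the telomere on the left, coloured by feature class, and open diamonds the number expected from GC content. Windows 3 and 5 stand highest at 146 and 101 peaks, windows 6 and 7 lie below their diamonds, and windows 9 and 10 hold 0.

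Windows of like GC content differed in how many peaks they held. Window 3 (60.5% GC) had 1.81 times the number expected from its GC content, 146 against 80.7, window 2 had 1.70 times (41 against 24.1), and windows 4, 5 and 8 had 1.35, 1.42 and 1.25 times. Windows 6 and 7 had 0.566 times (38 against 67.1) and 0.376 times (24 against 63.8), although their GC content of 58.2% and 57.4% was close to the 58.5% of window 5. The number of protein-coding genes that start in a window was 6 in window 6 and 3 in window 7. It was 28 in window 3, 9 in window 5 and 6 in window 2. All 41 peaks of window 2 had summits between 899457 and 999309. Window 7 is taken up mostly by PRDM16, a zinc finger regulator of brown fat and heart development that spans 369 kb. Repeated sequence was unequal as well. In window 6, 32.7% of GC-rich tiles of 400 bp (60% GC or more) had at least 20% of their 12-base words repeated within the tile, against 5.94% in window 7, 5.73% in window 5, 10.1% in window 3 and 16.4% in window 2. The part of genes and of repeats in these densities was not tested.

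Pileup, the number of fragments at the summit, had medians of 11 or 12 fragments in windows 2 to 8. The median was 12 in window 2 (interval of the median 10 to 13), 12 in window 3 (11 to 13), 11 in window 4 (10 to 11), 11 in window 5 (11 to 12), 12 in window 6 (11 to 13), 11 in window 7 (10 to 12) and 11 in window 8 (11 to 12). The intervals of these medians touch or overlap, while the summed pileup followed the number of peaks, with 1753 fragments in window 3, 1164 in window 5 and 267 in window 7. The highest pileup was 21 in window 3, 28 in window 6 and 15 in window 7. Median fold was 4.27 in window 3 and 4.22 in window 2, 4.08 in window 5, 4.06 in window 6, 4.00 in window 4, 3.94 in window 8 and 3.60 in window 7. The local background had a median of 1.98 fragments in window 3 and of 2.3 in window 7, where the median fold was lowest. Of the 17 members with a fold of 6 or more, 10 lay in window 3, which held 146 of the 476 members.

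**Figure D3:**
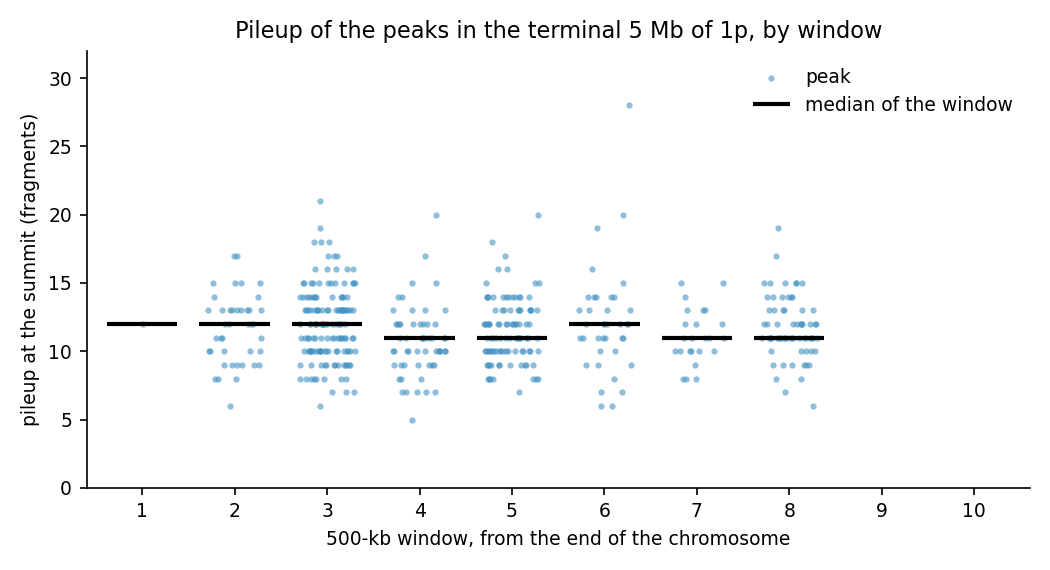
Each point is 1 peak of the terminal 5 Mb of 1p, with its pileup at the summit in fragments (y axis) in its 500-kb window (x axis, spread sideways within the window), and black lines are the window medians. The medians of windows 2 to 8 are 11 or 12 fragments, and the highest point, 28 fragments, is in window 6.

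Over the whole region the summits had a median pileup of 11 fragments (interval 11 to 12, quartiles 10 and 13, range 5 to 28), against 9 on the rest of chromosome 1 (quartiles 7 and 11) and 10 in the rest of the genome. A pileup of 10 or fewer was found in 34.2% of members (30 to 38.7%), against 72.5% of peaks on the rest of chromosome 1 (70.8 to 74.1%). In the rest of the genome the share was 59.9%. The background was higher too, with a median of 2.04 fragments (1.94 to 2.05), against 1.23 on the rest of chromosome 1 and 1.54 in the rest of the genome. Other gene-dense chromosome ends were also high. In the terminal 5 Mb of 9q, 16q and 19p the median pileup was 11, 14 and 11 fragments. The median background there was 1.88, 2.85 and 1.63 fragments, and 35.1%, 12.5% and 43.9% of peaks had a pileup of 10 or fewer. The DNA copy number of 1p in these cells is not known here, and its part in the pileup and the background was not tested. The authors' fold enrichment, a ratio of these quantities, had a median of 4.08 (3.98 to 4.19), against 4.27 (4.23 to 4.31) on the rest of chromosome 1 and 4.18 in the rest of the genome. At equal background the median pileups differed by at most 1 fragment in the strata compared here. Among other peaks the lowest pileup rose with background, from 5 fragments at backgrounds under 0.8 to 11 at 2.8 or more. The peak calling itself therefore limits how low these medians could lie. For backgrounds of 1.8 to 2.3 fragments, where 32.8% of members lay against 16.4% of other peaks, the median pileup was 11 in both and the median fold 4.17 in the region and 3.98 elsewhere. For 2.8 or more it was 14 in both with a median fold of 3.44 in both, and from 0.8 to 1.3 it was 9 in the region and 8 elsewhere.

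Strong and wide peaks were about as common as in the whole list. There were 17 members with a fold of at least 6, 3.57% (2.09 to 5.66%), where 3.51% of all peaks had such a fold. There were 25 members with a −log10 q of at least 5, 5.25% (3.43 to 7.66%), where 3.84% of all peaks had it. Members of 500 bp or more numbered 22, 4.62% (2.92 to 6.91%), where 3.53% of all peaks were so wide. The median width was 206 bp (193 to 216), against 182 bp on the rest of chromosome 1 and 185 bp in the rest of the genome. The widest members were a 1206-bp peak in an intron of VWA1, an extracellular matrix protein (1436895 to 1438100, fold 6.21, pileup 16), and the 1151-bp peak near C1orf159. Peaks of 1110 bp at SAMD11 (938497 to 939606, fold 4.92), 977 bp in the long non-coding RNA ENSG00000272449 (2542917 to 2543893, fold 5.69) and 966 bp at the 5′ end of PRKCZ (2050811 to 2051776, fold 5.52) came next.

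The feature classes of the members were close to those of the whole list. Promoters, counted here as 1 kb to either side of any transcription start site (TSS) that a protein-coding gene has, held 136 summits, 28.6% (24.6 to 32.9%), against 30% on the rest of chromosome 1 and 30.3% in the rest of the genome. With 3 kb to either side the order turned, at 54.2% in the region against 48.9% in the rest of the genome. Introns held 216, 45.4% (40.8 to 50%), against 41.1% in the rest of the genome, and intergenic sequence 80, 16.8% (13.6 to 20.5%), against 17.0%. Coding sequence outside promoters held 15 (3.15%, 1.77 to 5.14%, against 4.37%), 3′ UTRs 14 (2.94%, 1.62 to 4.89%, against 4.64%) and exons of non-coding genes 14 (2.94%, against 2.25%). The remaining summit lay in a 5′ UTR.

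Per Mb of each class, introns and intergenic sequence stood out against the rest of chromosome 1. The classes were not matched on GC content. On the rest of chromosome 1 the median GC content was 55.1% at intron and intergenic peaks and 61.8% at promoter peaks. In the region it was 63.3% at intron, 63.5% at intergenic and 65.5% at promoter peaks. Introns held 91.0 peaks per Mb of intron, against 8.99 on the rest of chromosome 1, a ratio of 10.1 (8.70 to 11.7). Intergenic sequence held 52.3 per Mb, against 6.06 on the rest of chromosome 1, a ratio of 8.64 (6.73 to 11). Promoters held 280 per Mb, against 71.1 on the rest of the chromosome, a ratio of 3.93 (3.26 to 4.72) whose interval lies below that of the introns. Coding sequence held 285 per Mb, against 72.7 on the rest of chromosome 1, a ratio of 3.93 (2.14 to 6.71). Within the region promoters made up 10.1% of the sequence and held 28.6% of the summits, 2.82 times their share, while introns stood at 0.917 times and intergenic sequence at 0.527 times.

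**Figure D4:**
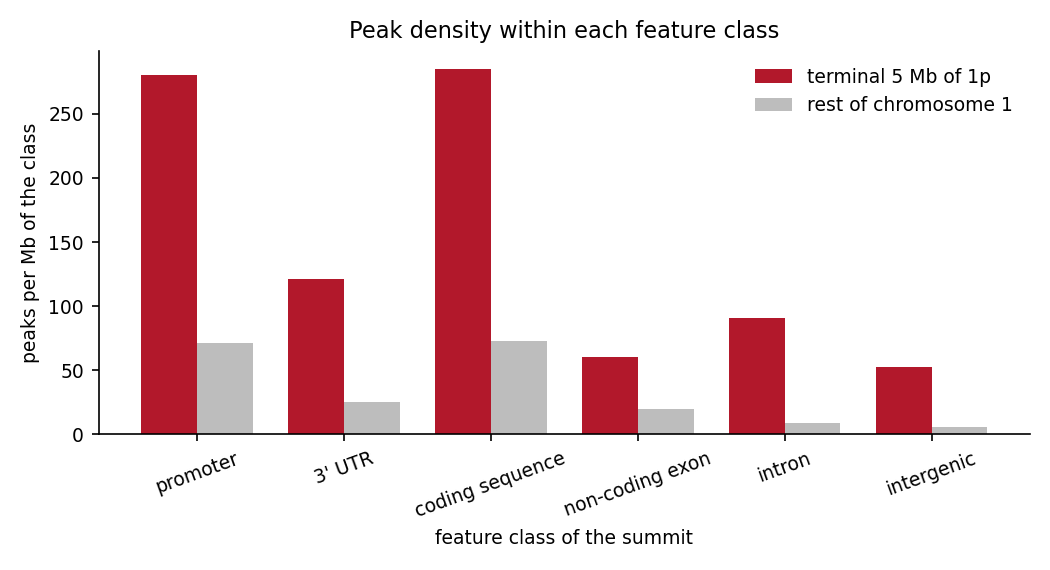
Bars give peaks per Mb of each feature class in the terminal 5 Mb of 1p (red) and on the rest of chromosome 1 (grey); the 5′ UTR class with 1 summit is left out. Introns stand at 91.0 against 8.99 peaks per Mb, and promoters at 280 against 71.1.

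The classes had similar heights. Median pileup was 12 at promoters, 12 in coding sequence and 3′ UTRs, 11 in introns and intergenic sequence and 9.5 in exons of non-coding genes. Median fold was 4.15 at promoters, 4.26 in intergenic sequence, 4.04 in introns and 3.65 in coding sequence. Of the 17 members with a fold of 6 or more, 7 were at promoters, 4 in introns, 4 intergenic and 2 in coding sequence. The classes were unevenly spread over the windows. Promoters held 41.1% of the summits in window 3 (33.0 to 49.5%) and 39.0% in window 2, but 8.33% in window 7 and 17.6% in window 8. Introns held 22.6% in window 3, 79.2% in window 7 and 73.5% in window 8 (61.4 to 83.5%). Intergenic summits made up 25.3% in window 3 and 1.47% in window 8.

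Promoter peaks in the region often lay more than 1 kb from a canonical start site. With 1 canonical start site per gene, 46 members (9.66%, 7.16 to 12.7%) lay within 1 kb of one, against 13.8% of other peaks (13.4 to 14.1%). From 100 to 600 bp downstream of canonical start sites there were 16 members and from 100 to 600 bp upstream 5, a ratio of 3.20 (1.12 to 11.2), against 5.20 (4.68 to 5.77) in the rest of the genome. The intervals overlap. More than 10 kb from every TSS lay 22.3% of members (18.6 to 26.3%), against 28.9% of other peaks.

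The region holds 78 protein-coding genes, or 16.3 per Mb, against 8.79 on the rest of chromosome 1, and they are shorter, with a median of 13.6 kb against 25.5 kb. It still held more peaks for each gene, 6.10 against 1.38. A promoter peak was found at 57 of the 78 genes, 73.1% (61.8 to 82.5%), where 31.6% of all 19970 protein-coding genes had one. A summit within 1 kb of the gene's 5′ end was found at 34 genes, 43.6% (32.4 to 55.3%), where 19.2% of all genes had one. The 5′ end is the outermost annotated start of the gene. A further 23 genes had a promoter peak only at a start site inside that end. Such a start can be the canonical one, as in ISG15 (summit 631 bp from it) and CCDC27 (174 bp). A summit between the gene's ends was found in 66 genes, 84.6% (74.7 to 91.8%), where 45.5% of all genes had one. The genes of the region were not matched to other genes on GC content. The 11 genes with neither kind of peak included OR4F5, OR4F29, OR4F16, MRPL20, MMP23B, CDK11B, SLC35E2B, HES5, ACTRT2 and AJAP1. Several of these have near-identical copies (the OR4F receptors, CDK11B with CDK11A, SLC35E2B with SLC35E2A), where reads that fit in several places can be lost or split, so a missing peak there is uncertain.

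Of the 476 summits, 345 (72.5%) lay in protein-coding genes, 42 in non-coding genes alone and 89 in no gene. Among long non-coding RNAs, ENSG00000272449 (2530064 to 2547471), whose body begins beside HES5, held 7 summits, ENSG00000272438 and ENSG00000234396 held 5 each and LINC01342 held 3. The function of these RNAs is not given by the annotation used here.

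A few long genes held many of the summits. There were 8 of the 78 genes with at least 10 summits between their ends, 10.3% (4.53 to 19.2%), where 1.96% of all protein-coding genes had as many, and together these 8 genes held 149 of the members (31.3%). MEGF6, a protein with epidermal growth factor repeats, held 32 summits over 124 kb and ranked 15 of 19970 genes. Its pileups ran from 9 to 17 with a median of 12 and its folds from 2.84 to 5.10. All 32 lay in introns, 18 of them in intron 4 (3525713 to 3570321). SKI, a transcriptional corepressor of TGF-beta signalling, held 27 over 82.8 kb and ranked 24. Its pileups ran from 8 to 20 with a median of 12. Of its 22 intronic summits 21 lay in intron 1, which makes up 96.6% of its intron length, close to the 95.5% of intronic summits found there.

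TP73 held 18 summits over 83.7 kb, with pileups of 6 to 19 and a median of 11. Intron 1 held 7 and intron 3 held 8. The start of the shorter N-terminally truncated form of p73 lies in intron 3, as background, and the summits were not matched to it. PRDM16 held 15, with pileups of 8 to 15 and a median of 11, but over 369 kb this was 0.406 summits per 10 kb, against 3.26 in SKI, 2.59 in MEGF6 and 2.15 in TP73. It had 7 in intron 3, 4 in intron 1 and no promoter peak. MORN1 and PLCH2, a phosphoinositide-specific phospholipase C, held 15 each, CFAP74, a protein of motile cilia, held 14 and PRKCZ, the atypical protein kinase C zeta, held 13. In PLCH2, 10 of the 15 lay upstream of the canonical transcript, at 2431983 to 2473703. Next in number were SAMD11, ACAP3 and FAAP20, each with 9 summits.

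**Figure D5:**
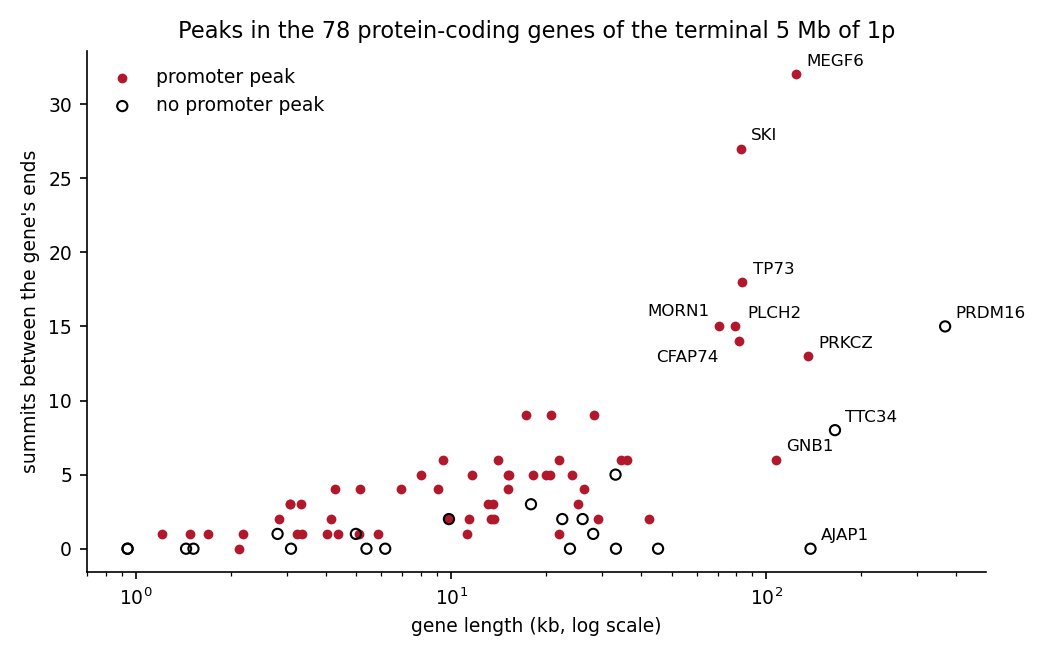
Each point is 1 of the 78 protein-coding genes of the region, with its length in kb (logarithmic x axis) and the summits between its ends (y axis); filled points have a promoter peak and open ones none. MEGF6 (32 summits) and SKI (27) stand highest, PRDM16 has 15 over 369 kb without a promoter peak, and AJAP1 has 0.

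The promoter peaks with the highest fold belonged to genes of varied function. SKI had the highest, with a fold of 6.66 at an internal start site 76110 bp from its 5′ end, and a second of 6.10 at 2228945, inside exon 1. ISG15, an interferon-induced ubiquitin-like protein, had a fold of 6.42 at a pileup of 10 over a background of 0.713, 631 bp from its canonical start. CCNL2, a cyclin linked to splicing, had 6.34 at a pileup of 15, and TPRG1L, a presynaptic protein, 6.03 at 13, 668 bp from its 5′ end. ANKRD65 and ATAD3C both had 6 at a pileup of 12. KLHL17, an actin-binding kelch protein, had 5.82 at a pileup of 15, CFAP74 5.79 at 9, UBE2J2, a ubiquitin-conjugating enzyme of the endoplasmic reticulum, 5.73 at 14 and PUSL1 5.62 at 15. The pileups of these 10 genes ran from 9 to 20, and in ISG15 and CFAP74 the fold came with a background under 1 fragment.

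Gene lists by function were drawn from the region itself, where 57 of 78 genes had a promoter peak and the median best fold of these 57 was 4.68. The Notch, WNT and developmental list had a promoter peak at 5 of its 8 members, with a median best fold of 4.50. HES4, a Notch-responsive repressor, had 1 peak with a fold of 4.22 at a pileup of 9. MIB2, a ubiquitin ligase for Notch ligands, had 3 promoter peaks with a best fold of 4.50, and DVL1, the Dishevelled protein of WNT signalling, had 3 with 4.42. SKI had 7 and TP73 had 5. HES5, a Notch target gene, PRDM16 and AJAP1 had none. In this list the 6 genes with a summit held 72 in all, most of them in SKI, TP73 and PRDM16.

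All 3 receptors of the TNF receptor superfamily had a promoter peak and a summit near their 5′ end. TNFRSF18 (GITR), a costimulatory receptor of T cells, had 2 with a best fold of 5.21 at a pileup of 13. TNFRSF4 (OX40) had 1 with a fold of 5.13 at 14, and TNFRSF14 (HVEM) had 3 with a best fold of 4.21 at 14. The 3 ion channel and taste receptor genes also each had one. SCNN1D, a subunit of the epithelial sodium channel family, had 3 promoter peaks with a best fold of 4.70, and GABRD, a subunit of the GABA-A receptor, had 2 with 4.17. TAS1R3, a subunit of the sweet and umami taste receptors, had 1 at 1331053 to 1331576, with its summit 3 bp from the start site, a pileup of 13 and a fold of 3.98. Its 250 bases upstream of the start, from the RefSeq promoter table of GRCh38.p14 on the plus strand, show 10 CpGs in capitals and 1 GC box in 64.4% GC sequence.
TAS1R3 upstream, chr1:1331030-1331279: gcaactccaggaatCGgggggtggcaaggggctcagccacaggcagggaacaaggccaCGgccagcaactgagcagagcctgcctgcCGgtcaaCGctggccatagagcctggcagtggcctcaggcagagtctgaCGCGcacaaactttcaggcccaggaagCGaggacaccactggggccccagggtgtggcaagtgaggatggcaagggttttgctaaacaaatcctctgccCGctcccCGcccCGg

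Genes of transcription and RNA processing had promoter peaks at 5 of 7 members, with a median best fold of 4.52. CCNL2 and PUSL1, a pseudouridine synthase-like protein, were named above. INTS11, the endonuclease of the Integrator complex, had 4 promoter peaks with a best fold of 4.52, NOC2L, a nucleolar inhibitor of histone acetyltransferases, had 2 with 3.31, and CDK11A had 1 with 3.65. SSU72, a phosphatase of RNA polymerase II, had no promoter peak but 5 summits in its body with pileups of 5 to 15, and the 32 bases at the summit of pileup 5 occur 1809 times in the genome. Of the DNA damage and apoptosis list, 3 of 4 had a promoter peak. FAAP20, a partner of the Fanconi anaemia core complex, had 5 with a best fold of 4.34, none of them at its 5′ end. DFFB, the nuclease that cuts DNA in apoptosis, had 1 summit in its body with a pileup of 15 and a fold of 3.96.

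All 5 genes of G protein, kinase and phospholipid signalling had a promoter peak, with a median best fold of 4.37. ACAP3, a GTPase-activating protein for ARF6, had 10 promoter peaks with pileups of 9 to 15 and folds of 2.95 to 4.68, the most of any gene of the region. PRKCZ had 2 with a best fold of 5.52, PLCH2 had 3 with 4.37 and ARHGEF16, a guanine nucleotide exchange factor, 2 with 3.27. GNB1, the beta-1 subunit of heterotrimeric G proteins, had 6 summits over 107 kb with pileups of 7 to 9, a median of 7.5, below those of MEGF6, SKI and TP73. The median background at its summits was 1.11 fragments, against 2.37 in MEGF6, and the median GC content around its summits was 51.9%, against 63.2% in MEGF6. At 2 of its 6 summits the central 32 bases occur more than once in the genome, 36 and 4 times.

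Of the mitochondrial list, 3 of 6 had a promoter peak. AURKAIP1, a mitochondrial ribosome-associated protein, had 1 with a fold of 3.94 and PERM1, a muscle regulator of mitochondrial genes, had 2 with 4.68. The AAA ATPases ATAD3A and ATAD3B had no promoter peak and 2 summits each, and ATAD3C had 2 promoter peaks with a best fold of 6. These genes are closely related copies, and the central 32 bases of all 9 summits in them occur once in the genome. Of the cofactor, peroxisome, lipid transfer and glycan list, 3 of 5 had a promoter peak. NADK, the kinase that makes NADP, had 1 with a fold of 3.91, PANK4 had 3 with 4.17 and CPTP, which transfers ceramide-1-phosphate, 1 with 3.86, while PEX10 and B3GALT6 had summits in their bodies alone. Of the extracellular matrix and secreted list, 5 of 6 had one. AGRN, the organiser of the neuromuscular junction, had 1 with a fold of 4.42 at a pileup of 17, VWA1 1 with 5.33, MXRA8 3 with 5.23, C1QTNF12, an adipokine, 5 with 4.68 and MEGF6 1 with 4.59. Of the 6 genes discussed in the 1p36 deletion syndrome, SKI, GABRD, GNB1 and PRKCZ had a promoter peak, 4 of 6, and PRDM16 and MMP23B had none.

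The highest pileups were not the highest folds. The highest, 28 fragments, lay in intron 6 of TTC34 at 2653763 to 2653938, over a background of 7.68, which left a fold of 3.34. Its neighbours at 2652219 to 2652379 and 2652564 to 2652696 had pileups of 20 and 19, over backgrounds of 4.10 and 3.05. The central 32 bases of the peak of 28 fragments occur 2 times in the genome, and 72.0% of the 12-base words in its 400 bp are repeated. In the whole region 27 members, 5.67% (3.77 to 8.15%), had at least 20% of such words repeated, against 2.13% of peaks elsewhere. Tiles of the region did so in 6.62% of cases, and GC-rich tiles in 12.5%, so members were less repeated than the GC-rich sequence around them. Only 10 members (2.10%) had central 32 bases that occur more than once in the genome, against 4.82% of other peaks.

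The members were GC-rich, with a median GC content of 63.8% in the surrounding 400 bp, against 57.6% on the rest of chromosome 1, and an observed to expected CpG ratio of 0.354 against 0.259. A GC box was present in the 200 bp around 111 of the 476 summits, 23.3% (19.6 to 27.4%), against 18.4% of other peaks. Among 200-bp tiles of the region 11.8% held one, and among tiles of 60% GC or more 25%, so the share in members was near that of sequence of like GC content in the region. At promoter summits 39 of 136 (28.7%) held one. Of the RefSeq promoters of the region's genes (250 bases before to 50 after the start), 53 of 78 held a GC box (67.9%), against 56.8% of 21493 promoters in that table whose symbols match protein-coding genes outside the region. The RefSeq promoters were not matched on GC content.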

How the data were processed

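Per the labels, chromatin of HCT116 cells was immunoprecipitated with an H4R3me2a antibody and sequenced in paired-end reads beside input DNA, 1 library each, so peaks come from single libraries. The submitters' processing notes name Bowtie2, MACS2, deepTools and GRCh38; the sources used here give neither versions nor read depths. The deposited peak table gives the pileup signal (whole fragments, not normalized), the fold enrichment as a ratio of pileup over background, per the file headers, and −log10 p and q values by the authors' caller. Each value belongs to its own peak and served to describe and filter members. The background was recovered as (pileup + 1) / fold − 1, and a Poisson tail at that value matched the deposited −log10 p within 0.05 in 476 of 476 members.

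Each summit received 1 class from GENCODE release 44, with promoters taking precedence, then 5′ UTRs, 3′ UTRs and coding sequence, then non-coding exons, then introns, and intergenic for the rest. The expected count by GC content used the peak rate per 2% GC bin outside the region and is a description. Intervals are exact (Clopper-Pearson or Poisson, 95%); those of medians use binomial ranks. A count of 0 allows 3 counts. Python 3.11.15, pandas 2.3.3, scipy 1.17.1, numba 0.67.0, pysam 0.24.0 and samtools 1.23.1 were used, and the calculations were tested on simulated data.

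Named genes were the 10 with the highest-fold promoter peak, the 10 with most summits (ties included), those of the 5 highest pileups and the 5 widest peaks, and every member of the gene lists; other genes without a peak and non-coding RNAs were named after their values were seen. A few items are not reported here. The members and gene lists were chosen with earlier results of these data known. Alternatives were a −log10 q minimum of 5, a fold minimum of 4, merging of peaks less than 1 kb apart, unique summits, promoter windows of 500 bp and 3 kb, gene 5′ ends alone, other window sizes and other region lengths.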

Additional observations from a re-analysis of the deposited data

How the results depend on the processing

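Of 30 alternatives, 15 were classed as leaving the value the same and 15 as moving it. The first class was a loose one. In it, genes with a promoter peak (57) were 43 with 500 bp, 46 with fold of 4 or more and 71 with 3 kb. The richest window (146 peaks) held 99 with close peaks merged and 116 with windows shifted by 250 kb. These values are positive by definition, so a change of sign was not possible. The order of the promoter share against the rest of the genome turned with a 3-kb window. The density ratio to the rest of chromosome 1 (8.16) was 10.8 with −log10 q of 5 or more, 7.03 with fold of 4 or more, 6.75 with close peaks merged, 11.7 in the terminal 2.5 Mb and 6.50 in the terminal 10 Mb. Genes with a promoter peak (57) fell to 5 at −log10 q of 5 or more and 34 at 5′ ends alone. The median pileup (11) was 16 at −log10 q of 5 or more, where 15 held elsewhere. The richest window (146 peaks) held 12 at −log10 q of 5 or more, 90 at fold of 4 or more and 75 in windows of 250 kb, and it began at 1000001 in each. The promoter share (28.6%) was 24% at −log10 q of 5 or more, against 47.1% in the rest of the genome; 16.4% with 500 bp, against 19.8%; 54.2% with 3 kb, against 48.9%; and 8.61% with 5′ ends alone, against 11.9%. The stricter q set holds 25 members, and fewer peaks enter by its construction; for the other moves the cause was not tested. No paired analysis was possible because there is 1 library of each kind. Depth limits what can be said of windows without a peak and of pileups under 10 fragments.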
